A study of Rattus norvegicus with 11 samples.

Results

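Sensory neurons cultured from rat dorsal root ganglia (DRG) were compared after Schwann cell conditioned medium (SCCM, 4 cultures) and without treatment (3 cultures), 7 of the 11 libraries in the series. The other 4 libraries, from cultures treated with 1 µM prostaglandin E2 (PGE2), were used to ask which differences the conditioned medium shared with that single lipid mediator. Of 22076 genes with values, 12184 had a mean of at least 1 FPKM (fragment counts divided by transcript length and library size) over the 7 libraries and were examined. For 1297 of these (10.6%) the SCCM and untreated values did not overlap. SCCM was higher in 579 genes (4.75% of those examined) and lower in 718 (5.89%). All 3 groups were wild-type Sprague-Dawley neurons from embryonic day 15, isolated by immunopanning, treated on day 13 in vitro and harvested on day 14. Each biological replicate pooled 10 to 18 embryos of 1 pregnant rat, so a library averages over littermates. The labels describe the control only as not treated and name no unconditioned medium, so the conditioned medium and the medium that carried it cannot be told apart.

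Schwann cells are the glia that wrap peripheral axons, and they release growth factors, cytokines and lipids that act on the neurons they contact. Cytokines of the gp130 family activate the transcription factor STAT3 in sensory neurons, a pathway best known from the response to nerve injury. Ligands of the TGF-beta and BMP families signal through SMAD proteins, and PGE2 acts on G protein-coupled receptors of nociceptors, the neurons that detect harmful stimuli.

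The cultures had neuronal transcriptomes, with Tubb3, a neuronal tubulin, between 828 and 1659 FPKM. Of 17 Schwann and satellite glial markers with a row, 7 stayed under 1 FPKM in all 11 libraries, among them the defining genes Sox10, Mbp and Erbb3, and Mal was listed at 0 in all 7 libraries. The summed FPKM of the glial markers was 116 to 264 in untreated, 254 to 403 in SCCM and 196 to 325 in PGE2 libraries. Ngfr, Scn7a, Pmp22 and Glul made up most of that sum. Ngfr alone lay between 29.1 and 107 FPKM in untreated, 101 and 260 in SCCM and 44.6 and 183 in PGE2 libraries. S100b, another glial marker, lay between 0.19 and 2.54 FPKM in untreated and between 0.95 and 9.23 in SCCM libraries. The sum of 11 macrophage and immune markers was 4.18 to 46.6 in untreated and 0.29 to 16.0 in SCCM libraries, with Ptprc and C1qb at 0 throughout the 7. Cd68, a lysosomal protein of macrophages, made up most of that sum, at 18.3 and 45.1 FPKM in untreated replicates 2 and 3, and 9 of the 11 markers were under 1 FPKM in every library. In bulk RNA, fewer cells of a type and less RNA per cell cannot be told apart, and the part of these markers in the results was not tested. Replicates varied within each treatment. The first principal component of the 7 libraries held 60.2% of the variance, with scores of −1.01, −33.2 and −61.8 for untreated replicates 1 to 3 and −20.1, 48.1, 51.7 and 16.2 for SCCM replicates 1 to 4. SCCM replicate 1 thus lay inside the untreated range on this axis, and sequencing depth, estimated from what 1 fragment is worth in low-expressed genes, varied by 1.32-fold at most. The first component of all 11 libraries held 56.0% of the variance and divided the PGE2 libraries. PGE2 replicates 1 and 2 scored −18.5 and −37.5, within the untreated range of −61.1 to −7.65. PGE2 replicates 3 and 4 scored 40.1 and 55.8, beside SCCM replicates 2 and 3 at 42.6 and 45.7.

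Genes higher in SCCM than in both other groups included Reg3b, Sbno2 and Hes1, and their promoters are shown because the results below turn on their transcripts. The windows run from 250 bases before to 50 bases after the annotated start, from RefSeq (assembly GRCr8, which is not the authors' build), written 5′ to 3′ on the strand of the gene. Capitals in Reg3b mark the match to the STAT motif TTCNNNGAA, which begins 129 bases before the start. Capitals in Hes1 mark both matches to the RBPJ motif TGGGAA, bound by the Notch effector RBPJ, which begin 123 and 109 bases before the start. The Sbno2 window holds no match to the STAT motif.
Reg3b (chr4:112419526-112419825, plus strand): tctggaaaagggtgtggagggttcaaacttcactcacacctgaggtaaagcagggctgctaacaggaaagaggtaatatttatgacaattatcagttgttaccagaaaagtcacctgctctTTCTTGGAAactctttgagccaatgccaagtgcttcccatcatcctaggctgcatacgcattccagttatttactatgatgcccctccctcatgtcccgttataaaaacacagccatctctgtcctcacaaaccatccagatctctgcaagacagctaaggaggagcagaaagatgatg
Hes1 (chr11:84212996-84213295, minus strand): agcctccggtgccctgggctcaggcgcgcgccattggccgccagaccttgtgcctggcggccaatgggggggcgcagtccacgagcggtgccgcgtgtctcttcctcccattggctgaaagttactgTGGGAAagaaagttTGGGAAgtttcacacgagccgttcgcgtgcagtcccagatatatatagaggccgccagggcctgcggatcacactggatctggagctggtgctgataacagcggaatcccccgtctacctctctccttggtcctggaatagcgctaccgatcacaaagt
Sbno2 (chr7:10256026-10256325, plus strand): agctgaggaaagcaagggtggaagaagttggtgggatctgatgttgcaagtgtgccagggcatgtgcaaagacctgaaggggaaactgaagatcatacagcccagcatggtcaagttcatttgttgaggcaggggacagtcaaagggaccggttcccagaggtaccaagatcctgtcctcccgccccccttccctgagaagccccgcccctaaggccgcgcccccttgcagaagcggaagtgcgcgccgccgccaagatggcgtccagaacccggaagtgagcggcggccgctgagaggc

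Searched on both strands, the STAT motif occurred in 8.68% of 27457 promoter windows in the RefSeq table and in 6.1% of the 9053 windows of examined genes. It occurred in 6 of the 56 windows (10.7%) of genes higher in SCCM than in both other groups. In the wider sets it occurred in 7.73% of the 440 windows of genes higher than untreated and 6.83% of the 498 of lower genes. The RBPJ motif occurred in 25.1% of all windows and in 12 of those 56 (21.4%), a share near the background. Of the other motifs searched, the cAMP response element TGACGTCA occurred in 4 of the 56 (7.14%) against 3.37% of examined genes. Over all 440 windows of genes higher in SCCM than untreated, its share was 2.5%. The core hypoxia response motif ACGTG occurred in 29.5% of the 498 windows of genes lower in SCCM and in 19.3% of those 440, against 26.5% of examined genes. A match describes letters in a window and is not evidence of binding.

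Genes of the STAT3 and gp130 cytokine response that did not overlap were all higher in SCCM, 4 of 26 examined members and none lower, against 4.75% and 5.89% of all examined genes. They were Reg3b, Sbno2, Ccl2 and Stat3. Reg3b was examined only because of its SCCM values, so the count is a description and supports nothing. Reg3b, a secreted lectin of the regenerating protein family that is induced in injured sensory neurons, measured 1.33, 5.01, 17.2 and 26.5 FPKM in SCCM replicates 1 to 4 and was listed at 0 in the 3 untreated ones. PGE2 replicate 1 held 0.09 FPKM, and the other 3 PGE2 libraries were listed at 0. Every SCCM value thus exceeded every value of the other groups.

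Sbno2, a transcriptional co-regulator known as a STAT3 target in macrophages of mouse and human, measured 11.5, 9.62, 12.7 and 17.9 FPKM in SCCM and 4.04, 3.42 and 1.54 FPKM untreated. Its PGE2 values were 1.48, 2.69, 1.56 and 0.99 FPKM. All 4 SCCM libraries lay above all 7 others, the log2 difference from untreated was 1.83 (SE 0.30), and the PGE2 libraries lay within the untreated range or below it.

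Ccl2, a chemokine that attracts monocytes, measured 32.8, 54.3, 76.3 and 14.3 FPKM in SCCM and 10.0, 3.61 and 0.12 FPKM untreated. Its PGE2 values were 1.53, 3.85, 13.3 and 6.90 FPKM, and the log2 difference between SCCM and untreated was 3.33 (SE 0.80). The lowest SCCM library, replicate 4, exceeded the highest PGE2 library by a small margin, and that separation from PGE2 was lost with median-ratio or quantile scaling, although the separation from untreated was kept. Stat3 itself measured 67.6, 99.9, 88.0 and 113 FPKM in SCCM against 62.6, 51.2 and 40.8 FPKM untreated, and PGE2 replicate 1 at 68.0 FPKM reached the lowest SCCM value. With median-ratio scaling Stat3 no longer separated SCCM from untreated. Over the whole list of 26 the median log2 change was 0.14, with 16 means higher and 10 lower, against −0.14 over all examined genes.

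**Figure D1:**
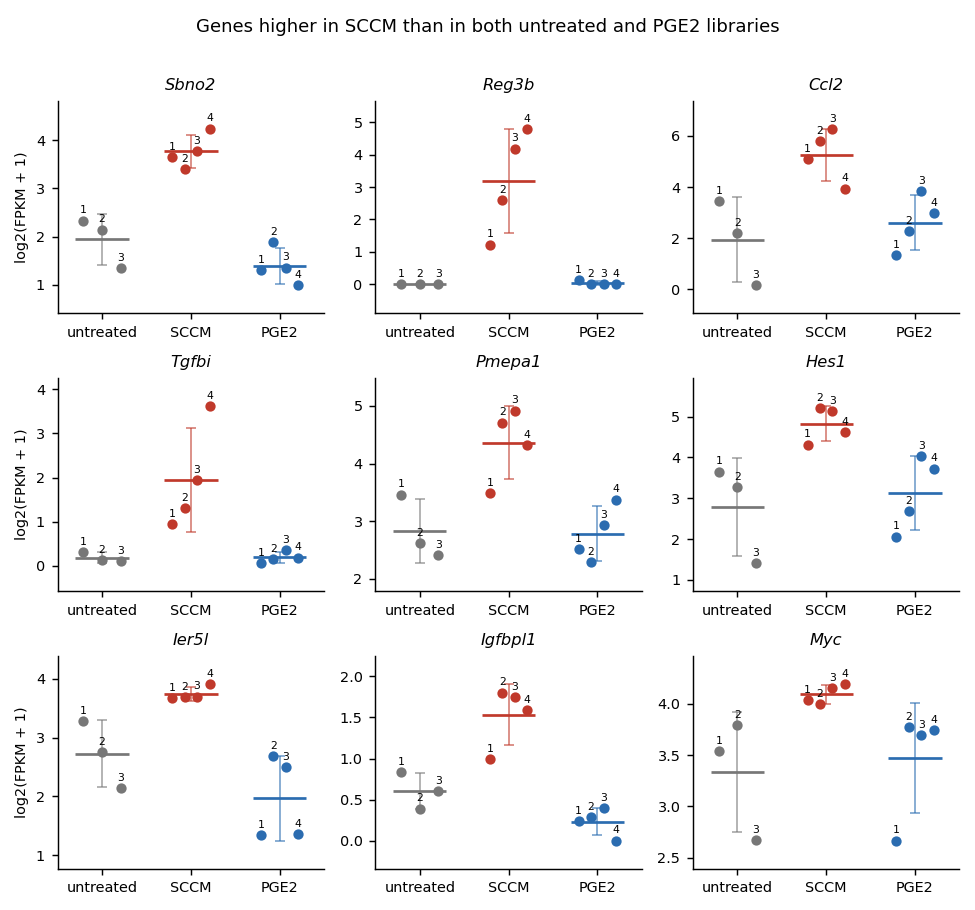
Transcript levels, as log2(FPKM + 1), of 9 genes in untreated, SCCM and PGE2 libraries. Points are single libraries with their replicate numbers, lines are group means and bars are SD (n = 3, 4 and 4), and in every panel all 4 SCCM points lie above all other points.

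Genes of the TGF-beta and BMP response lay on both sides. Of 29 examined members, 4 were higher in SCCM and all 4 of these were also above every PGE2 library, while 3 were lower (13.8% and 10.3%, against 4.75% and 5.89% of all examined genes). Tgfbi and Tgfbr3 reached the mean of 1 FPKM only through the SCCM libraries, so nothing is read from this count. Tgfbi stood above PGE2 under all 3 other scalings, and Pmepa1, Ski and Tgfbr3 did not. Tgfbi, an extracellular matrix protein named for its induction by TGF-beta, measured 0.94, 1.48, 2.83 and 11.2 FPKM in SCCM. Untreated libraries held 0.25, 0.10 and 0.08 FPKM and PGE2 libraries 0.05, 0.11, 0.28 and 0.14 FPKM. All 7 of these lay below the lowest SCCM library, and the log2 difference from untreated was 1.76 (SE 0.49), with SCCM replicate 4 the highest library.

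Pmepa1, which TGF-beta induces and which dampens the pathway, measured 10.3, 25.2, 29.2 and 19.1 FPKM in SCCM and 10, 5.13 and 4.34 FPKM untreated. SCCM replicate 1 and untreated replicate 1 were thus close, and with median-ratio or quantile scaling they overlapped. Ski, a repressor of SMAD proteins, ranged from 12.8 to 15.5 FPKM in SCCM and from 9.95 to 12.5 FPKM untreated. Tgfbr3, a TGF-beta co-receptor, ranged from 0.78 to 2.09 FPKM in SCCM and from 0.41 to 0.69 FPKM untreated. Ski, Tgfbr3 and Pmepa1 fell outside the rule for naming genes and were chosen after their values were seen.

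On the other side, Id1, a BMP-induced inhibitor of helix-loop-helix factors, measured 3.71, 0.36, 0.37 and 2.13 FPKM in SCCM against 15.6, 5.64 and 11.9 FPKM untreated, a log2 difference of −2.30 (SE 0.63). Its PGE2 values were 1.31, 6.69, 0.59 and 0.28 FPKM, so that 3 PGE2 libraries lay with SCCM and replicate 2 lay within the untreated range. Tgfb1, which encodes a TGF-beta ligand, ranged from 1.94 to 16.2 FPKM in SCCM and from 17.4 to 29.7 FPKM untreated. The BMP receptor Bmpr1a ranged from 2.79 to 3.49 FPKM in SCCM and from 4.19 to 4.40 FPKM untreated, a separation that was lost with median-ratio or quantile scaling. Over the whole list the median log2 change was −0.20, with 11 means higher and 18 lower, and the median for PGE2 was −0.249.

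Hes1, a Notch-induced transcriptional repressor, measured 18.9, 35.9, 34.4 and 23.7 FPKM in SCCM and 11.6, 8.68 and 1.67 FPKM untreated, a log2 difference of 2.04 (SE 0.57). PGE2 libraries held 3.17, 5.45, 15.5 and 12.2 FPKM. SCCM replicate 1 was the lowest of its group and PGE2 replicate 3 the highest of the others, and these crossed with median-ratio scaling only.

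Myc, a transcription factor of cell growth chosen after its values were seen, measured 15.4, 14.99, 16.8 and 17.3 FPKM in SCCM against 10.6, 12.8 and 5.38 FPKM untreated. Mnt, a repressor that opposes Myc at shared binding sites and also chosen after its values were seen, measured 10.7, 7.93, 8.35 and 9.32 FPKM in SCCM against 14.8, 15.6 and 20.7 FPKM untreated. All 4 PGE2 libraries held less Myc (5.35 to 12.7 FPKM) and more Mnt (10.8 to 17.8 FPKM) than any SCCM library, although for Myc that was lost with median-ratio or quantile scaling.

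Further genes stood above both other groups under every scaling tried. Ier5l, an immediate early response gene relative, measured 11.8, 11.9, 11.98 and 14.02 FPKM in SCCM against 8.76, 5.76 and 3.41 FPKM untreated, with PGE2 libraries at 1.54, 5.46, 4.65 and 1.56 FPKM. Tmem176a, a membrane protein gene next to and related to Tmem176b, lay between 51.7 and 53.0 FPKM in SCCM, between 24.8 and 45.8 FPKM untreated and between 25.7 and 41.6 FPKM with PGE2. Igfbpl1, related to the insulin-like growth factor binding proteins, lay between 0.99 and 2.49 FPKM in SCCM and at 0.78 FPKM or less in all others. It reached the mean of 1 FPKM only through the SCCM libraries, so its values are a description.

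Tnfrsf1a, the main receptor for tumour necrosis factor, was chosen after its values were seen and lay between 60.1 and 72.5 FPKM in SCCM, between 34.0 and 55.3 FPKM untreated and between 36.2 and 54.4 FPKM with PGE2. Sod2, the mitochondrial superoxide dismutase and an NF-kB target, lay between 167 and 191 FPKM in SCCM and between 109.97 and 140.1 FPKM untreated, with PGE2 between 115 and 158 FPKM. Its separation from PGE2 was lost with median-ratio or quantile scaling, and that from untreated was kept. Sod2 and Ccl2 were the 2 of 12 examined NF-kB response genes that did not overlap, 16.7% against 4.75% of all examined genes, while the median of that list was −0.06, or 0.08 with median-ratio scaling. With median-ratio or quantile scaling, 3 of the 12 were higher and 1 was lower. Alkal2, which encodes a ligand of the receptor tyrosine kinase ALK, lay between 0.84 and 3.23 FPKM in SCCM and between 0.12 and 0.79 FPKM untreated, and overlapped with median-ratio or quantile scaling. Only through the SCCM libraries did it reach the mean FPKM needed to be examined.

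Of the 579 genes higher in SCCM, 75 (13.0%) were also above every PGE2 library. Among the 718 lower genes, 25 (3.48%) were also below every PGE2 library. The share of all examined genes in which SCCM lay beyond every PGE2 library was not computed. Nothing is therefore read from the difference between these shares. In the higher set the median log2 difference of SCCM from untreated was 0.53, and 71 genes (12.3%) reached 1. In the lower set the median was −0.63, and 147 genes (20.5%) reached a fall of that size. Scg3, a granin of dense-core vesicles, measured 198, 173, 147 and 135 FPKM in SCCM against 219, 246 and 257 FPKM untreated. All PGE2 libraries, at 207 to 257 FPKM, lay above SCCM, and this held under all 3 other scalings. Tmem60, a small membrane protein gene, had its 4 SCCM values between 16.2 and 19.8 FPKM, its untreated values between 31.2 and 33.1 FPKM, and its PGE2 values between them at 23.4 to 31.0 FPKM. Vamp4, a vesicle SNARE, lay between 47.6 and 59.7 FPKM in SCCM and between 64.8 and 83.3 FPKM untreated, and overlapped with median-ratio or quantile scaling.

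The separation of SCCM from both other groups depended on the scale. Scaling by median ratios moved the median log2 change of all examined genes from −0.14 to −0.003. Of the 75 genes above both other groups, 16 stood apart under the deposited FPKM and all 3 other scalings, among them Sbno2, Reg3b, Tgfbi, Ier5l, Igfbpl1, Tmem176a and Tnfrsf1a. Of the 25 below both, 9 did so, among them Scg3, Tmem60 and Mnt. For the separation from untreated alone, 354 of the 579 higher and 424 of the 718 lower genes did so.

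Some ion channel genes were higher in SCCM without overlap, while most examined members of their lists overlapped. Scn10a, the sodium channel Nav1.8 of nociceptors, measured 32.9, 72.8, 101 and 62.4 FPKM in SCCM and 16.2, 31.8 and 12.1 FPKM untreated. PGE2 libraries held 18.1, 32.9, 83.7 and 89.8 FPKM. SCCM replicate 1 and PGE2 replicate 2 both lay just above the highest untreated library, PGE2 replicates 3 and 4 lay among the high SCCM libraries, and the log2 difference of SCCM from untreated was 1.71 (SE 0.56).

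Scn10a and Scn11a (Nav1.9, log2 difference 1.17) were the 2 of 11 examined sodium channel genes without overlap (18.2%, against 4.75% of all examined genes), and the list's median log2 change was 0.67 for SCCM and 0.71 for PGE2 against the same untreated libraries. Scn9a (Nav1.7), at 17.1 to 46.9 FPKM in SCCM and 7.53 to 21.5 FPKM untreated, overlapped. Among 14 calcium channel genes, 3 were higher (Cacna1b, the N-type pore subunit, with Cacnb1 and Cacnb3, both intracellular subunits) and Cacng7 was lower, 21.4% and 7.14% against 4.75% and 5.89% of all examined genes. Cacng7 overlapped under all 3 other scalings and Cacna1b with median-ratio or quantile scaling, which left 2 higher and 0 lower. The median log2 change of the calcium channel list was 0.589 for SCCM and 0.567 for PGE2. Of 24 potassium channel genes, 2 were higher and 1 was lower (8.33% and 4.17%, against 4.75% and 5.89% of all examined genes). Transduction channel genes without overlap were Trpv1, the capsaicin receptor, at 0.74 to 3.56 FPKM in SCCM and 0.31 to 0.69 FPKM untreated, and P2rx3, an ATP-gated channel, at 61.5 to 87.7 FPKM and 43.4 to 59.0 FPKM. They were 2 of 15 (13.3%, against 4.75% of all examined genes), and none of the 15 was lower (0%, against 5.89%). Trpv1 reached the mean of 1 FPKM only through the SCCM libraries, so nothing is read from this count. Of the PGE2 receptor genes Ptger1 to Ptger4, none separated SCCM from untreated. In the prostaglandin list of 10 the reductase Cbr1 was the 1 member without overlap (10% lower, against 5.89% of all examined genes). It lay at 2.80 to 5.88 FPKM in SCCM and 6.28 to 17.5 FPKM untreated.

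Tac1, the precursor of substance P, measured 12.8, 41.7, 73.7 and 29.8 FPKM in SCCM and 6.99, 11.1 and 5.05 FPKM untreated, a log2 difference of 2.03 (SE 0.53). PGE2 values of 6.83, 15.3, 25.9 and 13.7 FPKM overlapped those of both other groups. Sytl2, an effector of the vesicle GTPase Rab27, measured 9.54, 30.9, 53.1 and 58.0 FPKM in SCCM against 5.35, 6.22 and 1.76 FPKM untreated, a log2 difference of 2.68 (SE 0.70). Its PGE2 values were 6.03, 4.15, 19.4 and 28.2 FPKM, again low in replicates 1 and 2. In the list of 19 sensory neuropeptides and granins, Tac1 was the 1 member higher and Scg3 the 1 lower without overlap (5.26% each). These shares were near the 4.75% and 5.89% of all examined genes. The list had 9 means higher and 10 lower and a median log2 change of −0.21.

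Genes by which axons address Schwann cells were 4 higher and 1 lower of 26 examined (15.4% and 3.85%, against 4.75% and 5.89% of all examined genes). With median-ratio or quantile scaling they were 4 higher and 4 lower. Cntnap1, which encodes the paranodal axonal protein Caspr, measured 33.9, 64.5, 76.5 and 47.4 FPKM in SCCM against 26.0, 29.9 and 13.0 FPKM untreated. Cadm1, an axonal adhesion molecule bound by Schwann cells, lay between 11.7 and 18.2 FPKM in SCCM and between 9.88 and 10.4 FPKM untreated. Chl1, a cell adhesion molecule of the L1 family taken from the axon guidance list, lay between 16.0 and 41.6 FPKM and between 4.13 and 11.95 FPKM. For all 3 genes the lowest PGE2 library lay below the highest untreated library.

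**Figure D2:**
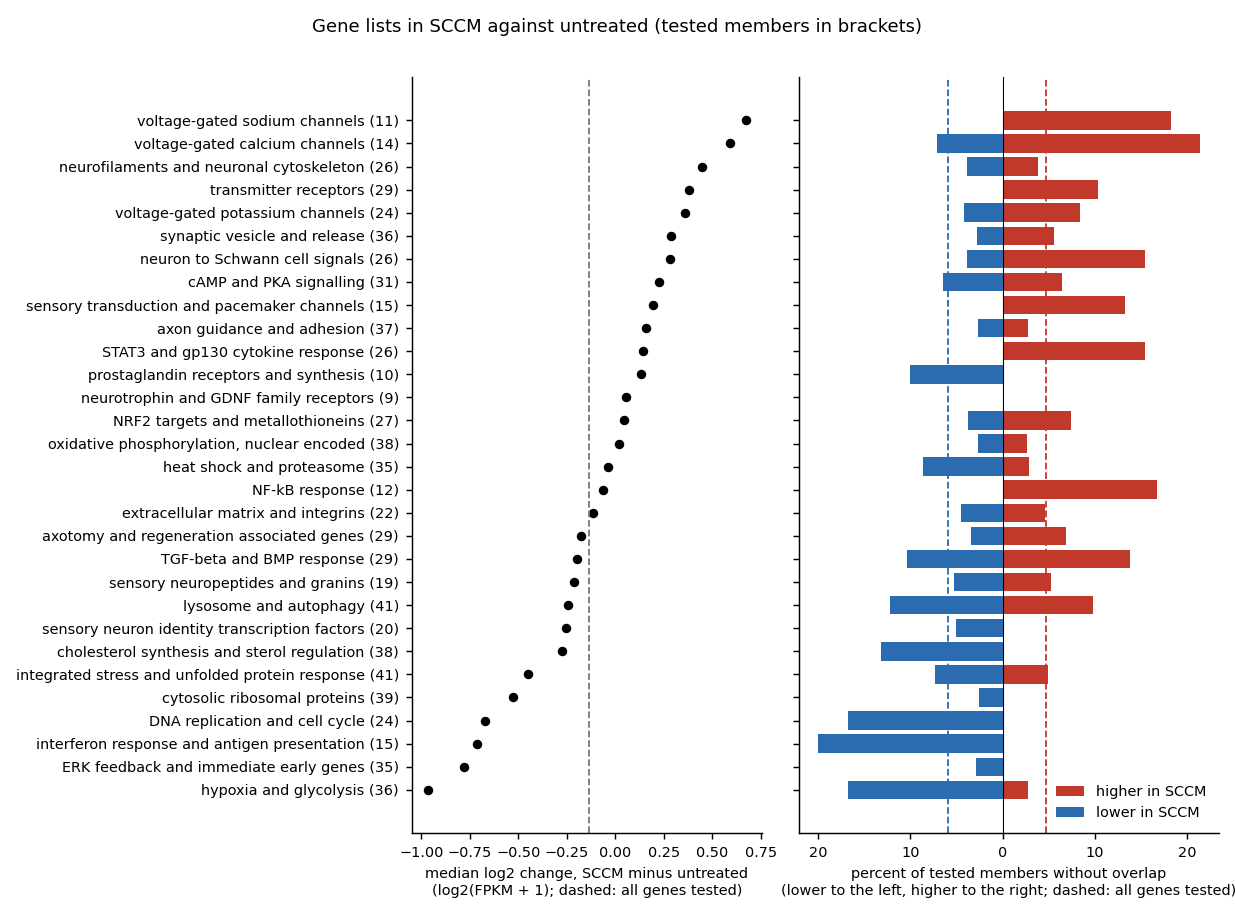
Median log2 change between SCCM and untreated libraries over the examined members of 30 gene lists (left), and the percent of those members without overlap, higher to the right and lower to the left (right). Dashed lines give the same over all 12184 genes, and the lists run from sodium channels at 0.67 to hypoxia and glycolysis genes at −0.97.

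Cell cycle genes without overlap were all lower in SCCM, 4 of 24 examined members (16.7%, against 5.89% of all examined genes). Ccnd1, the G1 cyclin D1, measured 13.4, 0.32, 0.37 and 0.36 FPKM in SCCM and 21.2, 16.7 and 18.8 FPKM untreated, a log2 difference of −3.02 (SE 0.98). PGE2 values were 14.4, 8.19, 0.79 and 0.18 FPKM. SCCM replicates 2 to 4 and PGE2 replicates 3 and 4 were all below 1 FPKM, whereas SCCM replicate 1 and PGE2 replicate 1 were closer to untreated than to these.

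Ccnd2 lay between 6.96 and 16.5 FPKM in SCCM and between 22.6 and 45.9 FPKM untreated. The S-phase cyclins Ccne1 (15.6 to 26.2 FPKM in SCCM, 28.5 to 34.6 FPKM untreated) and Ccne2 (1.63 to 8.41 and 8.95 to 20.0 FPKM) were lower as well. Over the list, 21 of 24 means were lower in SCCM. The median log2 change was −0.672 for SCCM and −0.665 for PGE2 against the same untreated libraries.

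Hypoxia and glycolysis genes had the lowest list median, −0.97 for SCCM and −0.91 for PGE2 against the same untreated libraries. Of 36 members, 6 were lower without overlap (16.7%, against 5.89% of all examined genes) and 1 was higher (2.78%, against 4.75%). The lower members numbered 6 with median-ratio scaling, 5 with quantile scaling and 3 without mitochondrially encoded genes. Vegfa, an angiogenic factor induced by low oxygen, measured 40.1, 14.7, 13.4 and 27.8 FPKM in SCCM against 45, 48.2 and 45.2 FPKM untreated. PGE2 replicate 2 at 53.0 FPKM exceeded all of these, while PGE2 replicates 1, 3 and 4 lay at 33.5, 18.0 and 19.1 FPKM. The mean of the list, with each gene centred over the 11 libraries on the log2 scale, was 0.465, 0.816 and 0.763 in untreated and 0.431, −0.884, −0.999 and 0.377 in SCCM replicates 1 to 4. SCCM replicates 1 and 4 thus lay just below the untreated range, and replicates 2 and 3 far below it.

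Ero1a, a protein-folding oxidase, ranged from 27.0 to 78.2 FPKM in SCCM and from 82.7 to 137 FPKM untreated. The mitophagy receptor Bnip3 ranged from 5.42 to 15.6 FPKM and from 19.8 to 30.2 FPKM. Hk1, a hexokinase chosen after its values were seen, was the member higher in SCCM, at 123 to 145 FPKM against 73.1 to 121 FPKM, and overlapped under all 3 other scalings.

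Fgf21, a stress-induced hormone, measured 349, 37.3, 51.2 and 38.2 FPKM in SCCM and 572, 499.9 and 485 FPKM untreated, with PGE2 libraries at 506, 735, 55.3 and 30.4 FPKM. Again SCCM replicate 1 was nearest to untreated, and PGE2 replicates 1 and 2 lay within or above the untreated range. In the integrated stress list 3 of 41 members were lower and 2 higher (7.32% and 4.88%), near the 5.89% and 4.75% of all examined genes.

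Interferon and antigen presentation genes without overlap were all lower, 3 of 15 (20%, against 5.89% of all examined genes). B2m, the light chain of class I major histocompatibility molecules, measured 258, 188, 158 and 185 FPKM in SCCM and 333, 285 and 399 FPKM untreated, with PGE2 at 379.6, 308, 222 and 262 FPKM. Tap2, which carries peptides to those molecules, ranged from 0.94 to 2.5 FPKM in SCCM and from 3.05 to 5.75 FPKM untreated. Ifih1, a sensor of viral RNA, ranged from 0.29 to 1.05 FPKM and from 1.53 to 1.61 FPKM. Ifih1 reached the mean of 1 FPKM only through the untreated libraries, so nothing is read from the count of 3. The list's median log2 change was −0.715 for SCCM and −0.648 for PGE2 against the same untreated libraries. The summed macrophage and immune markers given above were also lower in SCCM replicates 2 to 4 than in untreated libraries. That sum is mostly Cd68, and its part in these values was not tested.

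Cholesterol synthesis genes without overlap were also all lower, 5 of 38 (13.2%, against 5.89% of all examined genes). With median-ratio scaling only 1 of the 38 was lower without overlap, against 6.33% of all examined genes under that scaling. Dhcr7, a late enzyme of the pathway, measured 60.4, 52.3, 40.1 and 24.7 FPKM in SCCM and 69.0, 68.8 and 96.0 FPKM untreated. PGE2 libraries held 83.8, 70.5, 64.0 and 35.5 FPKM. SCCM replicate 4 was the lowest SCCM library and PGE2 replicate 4 the lowest PGE2 library, and the list's median log2 change was −0.28 for SCCM and −0.01 for PGE2.

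**Figure D3:**
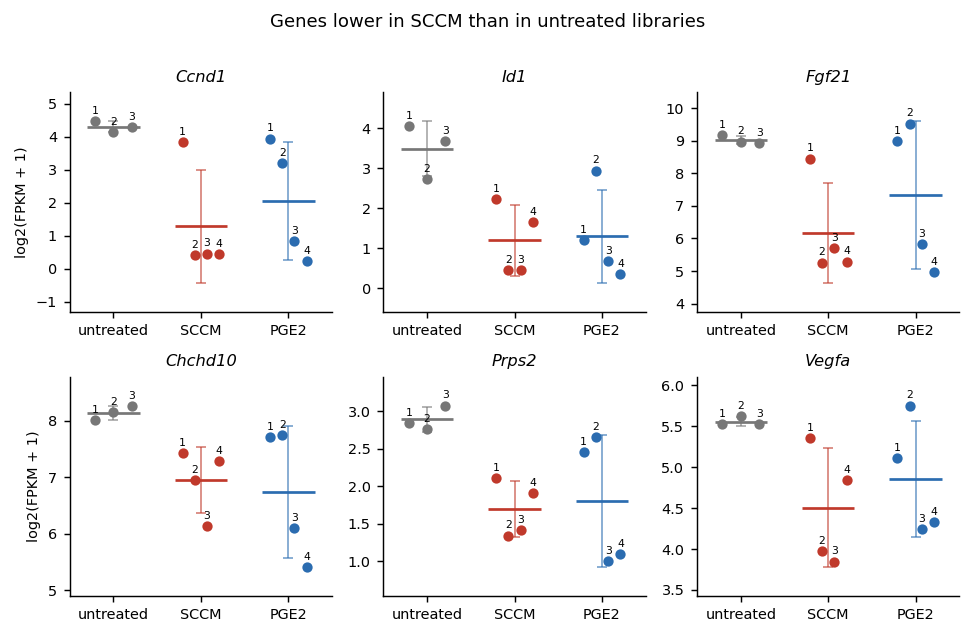
Transcript levels, as log2(FPKM + 1), of 6 genes that were lower in all 4 SCCM than in all 3 untreated libraries. Points are single libraries with their replicate numbers, lines are means and bars are SD, and PGE2 replicates 3 and 4 lie below PGE2 replicates 1 and 2 in all 6 panels.

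Of the 1297 genes, 1044 were neither shared with all PGE2 libraries nor apart from them. PGE2 libraries all lay beyond untreated on the same side in 60 of the 579 higher genes (10.4%) and 99 of the 718 lower genes (13.8%). Over all examined genes PGE2 lay above all untreated libraries in 1.74% and below them in 3.62%. Both treatments were compared with the same untreated libraries, so these shares are a description. The remaining 445 higher and 599 lower genes met neither condition. The PGE2 libraries differed in this. PGE2 replicate 3 lay on the SCCM side of all untreated libraries in 85.1% of the higher genes and 92.5% of the lower genes, and PGE2 replicate 4 in 61.1% and 82.2%. PGE2 replicate 1 did so in 27.8% and 42.2%, and PGE2 replicate 2 in 42.1% and 36.8%.

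**Figure D4:**
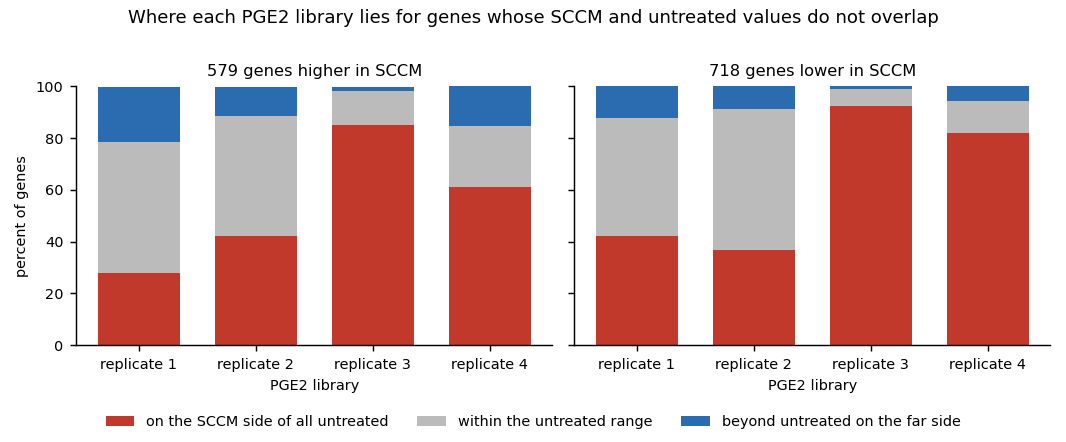
Percent of the 579 genes higher (left) and 718 genes lower (right) in SCCM for which each PGE2 library lay on the SCCM side of all untreated libraries, within the untreated range, or beyond untreated on the far side. PGE2 replicate 3 lay on the SCCM side most often, in 85.1% and 92.5%, and PGE2 replicate 1 or 2 least often.

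In the genes shared by both treatments, which were chosen by that separation, the median log2 difference of SCCM from untreated was 0.53 among the higher (59 genes) and −0.57 among the lower (94 genes), leaving out 6 genes in which PGE2 lay between the other groups without overlap. Cnih1, an export factor for membrane proteins, measured 46.8, 54.0, 55.8 and 54.7 FPKM in SCCM, 48.3, 45.9, 49.9 and 46.6 FPKM with PGE2 and 38.9, 39.3 and 37.5 FPKM untreated. All 8 treated libraries lay above all 3 untreated, and the log2 difference from untreated was 0.44 for SCCM and 0.30 for PGE2. Phgdh, the first enzyme of serine synthesis, measured 8.32, 10.6, 8.69 and 8.83 FPKM in SCCM, 9.48, 9.34, 11.6 and 9.47 FPKM with PGE2 and 7.10, 6.67 and 4.90 FPKM untreated. Here PGE2 was not below SCCM, with log2 differences from untreated of 0.49 and 0.61.

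The shared higher genes included Fgf13, an intracellular partner of sodium channels, and Dpysl3, a growth cone protein. Fgf13 ranged from 37.0 to 62.2 FPKM in SCCM, from 35.9 to 76.1 FPKM with PGE2 and from 28.6 to 33.0 FPKM untreated. Dpysl3 ranged from 224 to 314, from 231 to 259.7 and from 154 to 211 FPKM in the same order, and overlapped with median-ratio or quantile scaling.

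Among the shared lower genes, Tfeb, the master transcription factor of lysosomal genes, measured 4.97, 1.02, 1.11 and 1.07 FPKM in SCCM, 3.84, 4.82, 1.49 and 1.37 FPKM with PGE2 and 5.56, 5.89 and 8.27 FPKM untreated. The 8 treated libraries fell into high and low values within each treatment, SCCM replicate 1 with PGE2 replicates 1 and 2 on the high side. The heat shock factor Hsf1 ranged from 14.2 to 20.4 FPKM in SCCM and from 13.7 to 19.1 FPKM with PGE2, against 20.8 to 29.1 FPKM untreated. Stxbp3, a vesicle fusion factor of the Munc18 family, ranged from 3.10 to 5.86 and from 4.14 to 5.92 FPKM, against 7.13 to 7.58 FPKM. Chchd10, a mitochondrial intermembrane space protein, ranged from 69.2 to 170.3 and from 41.6 to 213 FPKM, against 257 to 306 FPKM.

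**Figure D5:**
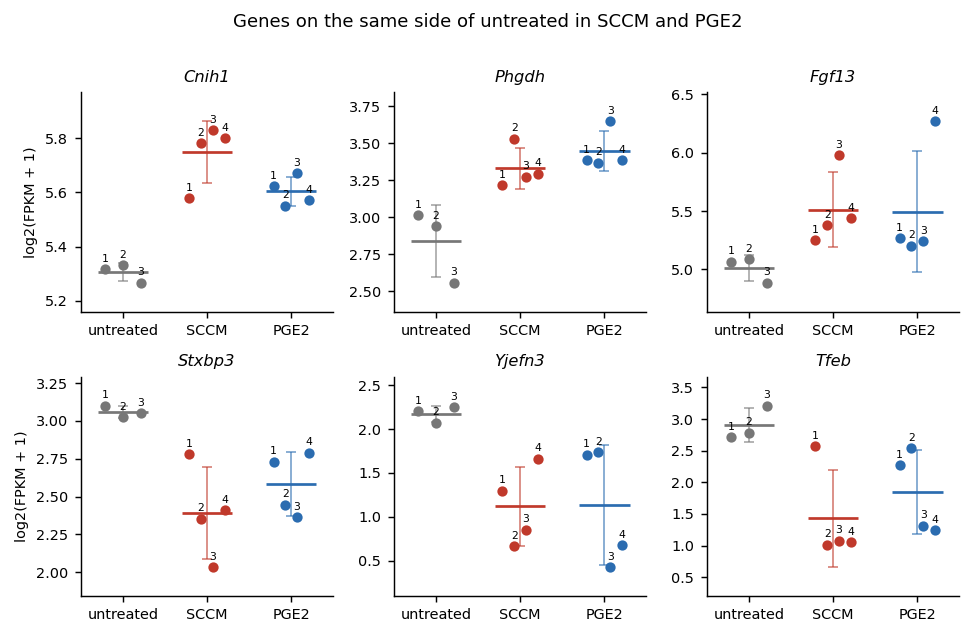
Transcript levels, as log2(FPKM + 1), of 6 genes in which all SCCM and all PGE2 libraries lay on the same side of all untreated libraries. Points are single libraries with their replicate numbers, lines are means and bars are SD, and the top row shows higher genes and the bottom row lower genes.

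The library nearest to the other group was most often SCCM replicate 1. It was the SCCM value closest to untreated in 376 (64.9%) of the higher genes and 513 (71.4%) of the lower genes, and untreated replicate 1 was the untreated value closest to SCCM in 309 and 422. Without SCCM replicate 1 the genes without overlap numbered 4482, and without untreated replicate 1 they numbered 4622. A count rises by construction when fewer libraries are compared, and leaving out any other SCCM or untreated library gave 1435 to 1902. SCCM replicate 1 had 4.09% of its FPKM in mitochondrially encoded genes, within the untreated range of 3.37 to 5.54%. SCCM replicates 2 and 4 stood at 8.06% and 10.9% and replicate 3 at 3.71%, and the part of these shares was not tested.

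A test over all genes was then made, with limma on log2(FPKM + 1) and Benjamini-Hochberg adjustment. For SCCM against untreated it called 0 of 12184 genes (0%, lowest adjusted p = 0.355), and 1667 genes had an unadjusted p under 0.05, of which 596 were higher and 1071 lower. For SCCM against PGE2, 405 genes had an unadjusted limma p under 0.05, of which 314 were higher and 91 lower in SCCM. Sbno2 was the 1 gene (0.00821%) called there, higher by 2.38 on the log2 scale (SE 0.27, limma adjusted p = 0.0278) and higher in 4 of 4 SCCM libraries. That call was lost without any 1 of the 4 SCCM libraries, without PGE2 replicate 1, 3 or 4 or without untreated replicate 2, and the limma adjusted p ranged from 0.0139 to 0.171 over all libraries left out in turn. It was also lost with the replicate block (limma adjusted p = 0.605), with a pseudocount of 0.1 (0.0566) and with no filter (0.135), and was kept in 12 of 23 alternatives. Without SCCM replicate 1, limma called 1 gene for SCCM against untreated, Reg3b (log2 difference 3.85, adjusted p = 0.0473). PGE2 against untreated gave 0 calls (0%, limma lowest adjusted p = 0.536) and 702 genes at an unadjusted p under 0.05. These comparisons share libraries and are not independent of each other. The absence of overlap and the log2 differences of the genes it selects are therefore descriptions, and in the fit of all 11 libraries with equal weights no gene other than Sbno2 passed a test.

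At the edge of the separation, Npr2, a natriuretic peptide receptor, had its lowest SCCM value at 14.70 and its highest untreated value at 14.69 FPKM, just inside. Chsy1, a chondroitin synthase, had both at 7.35 FPKM, just outside. On the lower side, Svip lay just inside with 141.10 against 141.13 FPKM, while Hmmr, at 5.02 FPKM in both, lay just outside. At the expression limit, Reps2 had a mean of 0.99 FPKM over the 7 libraries and was not examined, while Nutm1, at 0.22 to 0.71 FPKM untreated and 0.72 to 1.94 FPKM in SCCM, was just above the limit.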

How the data were processed

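Poly-A enriched, stranded libraries were made from RNA with an integrity number above 8, per the labels' protocols. FPKM were computed by the authors and deposited with 1 column per library. The build was Rnor 6.0, per the submitters' processing notes. Aligner, counter and annotation were not given in the sources used here. Values were present in 22076 rows, 207489 empty lines were skipped, and 2 gene names had become dates. Names of 18406 rows matched RefSeq (GRCr8, used for names and promoters). Without read totals, no counting interval could be given.

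The 12184 genes averaging 1 FPKM or more in the 7 SCCM and untreated libraries were examined as log2(FPKM + 1), a scale that understates changes of low genes. A gene did not overlap when all SCCM values lay beyond all untreated values, and this was extended to the PGE2 libraries. Limma 3.58.1 (R 4.3.3, lmFit, contrasts.fit, eBayes with trend) fitted 3 groups in 1 model, with two-sided tests and Benjamini-Hochberg adjustment at 0.05, and was checked on simulated data. P-values measure the spread between cultures within a treatment. Which libraries of different treatments shared a litter was not known here. Members, 30 gene lists and 5 marker lists were chosen with earlier results of these data known. Genes were named by the size of the gap between groups, by up to 4 members per list, or from a short fixed set including Sbno2, Reg3b, Ccl2 and the PGE2 receptors, and the text marks any gene outside these rules.

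Alternatives were a pseudocount of 0.1, no filter, filters at 5 FPKM or over 11 libraries, median-ratio and quantile scaling, removal of 13 mitochondrially encoded genes, other eBayes settings, array weights, fits of only the groups compared, a replicate block, and omission of single libraries.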

Additional observations from a re-analysis of the deposited data

Results flagged for a closer look

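For the named genes, a library was singled out when its distance to the nearest library of its group was large against the range of that group (Dixon's criterion at the 95% level, groups of 4). Chance alone does so in about 1 in 20 groups. SCCM replicate 1 stood apart most often among the SCCM libraries, on the untreated side in each case. Its values were 7.65 FPKM for Nrtn, 2.5 for Tap2, 348.6 for Fgf21, 815.8 for Fth1, 13.35 for Ccnd1, 26.22 for Ccne1, 4.97 for Tfeb and 14.54 for Cd68. SCCM replicate 3 was high for Trpv1 at 3.56 FPKM and for Rph3a at 17.28 FPKM. SCCM replicate 4 was high for Ier5l at 14.02 FPKM, for AABR07070060.2 at 0.16 FPKM and for LOC689065 at 0.28 FPKM.

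Among PGE2 libraries, replicate 1 stood apart for Reg3b at 0.09 FPKM, with the others at 0, and for Bcl11b at 0.3 FPKM and Mmut at 18.2 FPKM. PGE2 replicate 2 was high for 1700123L14Rik at 3.82 FPKM and for Id1 at 6.69 FPKM. PGE2 replicate 3 was high for Phgdh at 11.55 FPKM and for Cacnb1 at 9.67 FPKM. PGE2 replicate 4 was high for Gtdc1 at 4.2 FPKM, Calml3 at 7.49 FPKM, Tmem60 at 31.01 FPKM, Rph3a at 22.72 FPKM and Fgf13 at 76.07 FPKM, and low for Sod2 at 115 FPKM.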

How the results depend on the processing

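Over 23 alternatives the log2 difference between SCCM and untreated kept its direction for all but 4 of the 150 named genes. Thy1 differed by 0.011 with the replicate block and by −0.647 to 0.222 when single libraries were left out. Pdgfra differed by −0.0179 with array weights and by −0.156 to 0.169 over libraries left out. Ptger2 differed by 0.0166 with the replicate block and by −0.976 to 0.438 over libraries left out, and Ptger4 by −0.0862 with array weights. Limma calls for SCCM against untreated numbered 7382 with array weights, which put a weight of 41.3 on untreated replicate 2, and 0 to 1 over libraries left out. For SCCM against PGE2 they numbered 0 with a pseudocount of 0.1, with the replicate block or with no filter, and 0 to 1 over libraries left out. For PGE2 against untreated they numbered 3 with array weights. Replicate numbers did not pair the samples consistently. Deviations of same-numbered untreated and SCCM libraries from their group means correlated at −0.40, −0.02 and −0.31. Same-numbered SCCM and PGE2 libraries correlated at 0.49, −0.51, 0.42 and −0.13. Differently numbered SCCM and PGE2 libraries ranged from −0.60 (SCCM replicate 1, PGE2 replicate 3) to 0.72 (SCCM replicate 1, PGE2 replicate 2). What such shared deviations reflect was not tested. Over libraries left out, genes without overlap numbered 1297 to 4622, those also apart from PGE2 110 to 497 and those shared with it 162 to 1943, counts that rise by construction with fewer libraries. Of the 1297 genes, 879 stayed without overlap in the same direction with median-ratio scaling, 858 with quantile scaling and 1119 without mitochondrially encoded genes; of the 100 apart from PGE2, 30, 31 and 80 did. The causes were not tested. With 3 and 4 libraries a group and no read totals, differences under the spread between cultures could not be resolved.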

Other observations

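Of 39 examined cytosolic ribosomal protein genes, all 39 had lower means in SCCM than untreated, with a median log2 change of −0.53. Only 1 did not overlap (2.56% lower, against 5.89% of all examined genes). That gene, Rps6, measured 60.9, 35.3, 38.6 and 60.4 FPKM in SCCM and 66.5, 71.1 and 124 FPKM untreated. The number of lower means was 37 with median-ratio scaling, and the median PGE2 change of the same genes was −0.59. Nuclear genes of oxidative phosphorylation had 20 higher and 18 lower means (median 0.02), which became 30 and 8 with median-ratio scaling (median 0.17). Of these 38 genes, Atp5f1b, a catalytic subunit of ATP synthase, was higher without overlap (299 to 321 FPKM in SCCM, 206 to 276 FPKM untreated) and Sdha, the flavoprotein of complex II, was lower (102 to 117 and 124 to 135 FPKM). Each was 2.63% of the list, against 4.75% higher and 5.89% lower over all examined genes. With median-ratio scaling 9 were higher and 0 lower, and with quantile scaling 6 and 0, since Sdha then overlapped.

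Of 41 lysosome and autophagy genes, 4 were higher and 5 lower without overlap (9.76% and 12.2%, against 4.75% and 5.89% of all examined genes), or 2 and 5 with median-ratio scaling. Becn1, which starts autophagosome formation, lay between 19.5 and 23.8 FPKM in SCCM and between 11.5 and 17.3 FPKM untreated. Wipi1, which acts in the same process, lay between 1.87 and 7.13 FPKM and between 9.29 and 14.2 FPKM. Among 27 NRF2 targets and metallothioneins, 2 were higher and 1 was lower (7.41% and 3.7%, against 4.75% and 5.89% of all examined genes). The lower gene was Fth1, the heavy chain of the iron store ferritin, at 816, 623, 630.4 and 624 FPKM in SCCM against 1038, 869 and 876 FPKM untreated. None of the 9 examined neurotrophin and GDNF family receptors separated the groups (0% each way, against 4.75% and 5.89% of all examined genes). With quantile scaling 1 of the 9 was lower without overlap. A list of 9 is too short for anything to be read from these counts.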
